A study of Mus musculus with 10 samples.

Results

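Insulin and insulin-like growth factor (IGF) signalling was followed through 9 genes in pancreatic islets: the receptor genes Insr and Igf1r, the adaptor genes Irs1 and Irs2, the lipid kinase gene Pik3ca, the kinase genes Akt1, Akt2 and Mtor, and the transcription factor gene Foxo1. They were chosen by symbol, and all 9 were among the 17945 named genes of the deposited table and among the 11711 genes tested. The data are RNA-seq profiles of islets from C57BL/6 mice aged 18 weeks, in 5 libraries labelled control and 5 labelled knockout. Per the labels and the design text, both groups carry Grk5 flox/flox alleles, and the knockouts also carry Pdx1-CreER, a Cre recombinase fused to an estrogen receptor domain and driven by a promoter active in β cells, which make insulin. Grk5 is a member of the kinase family that desensitises G protein-coupled receptors. The sources used here do not say whether the controls received the inducing drug, nor whether the libraries are of different animals. The p-values below therefore measure the spread between these libraries.

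Insulin and the IGFs bind receptor tyrosine kinases at the cell surface, which phosphorylate the insulin receptor substrate (IRS) proteins. These recruit phosphatidylinositol 3-kinase, which makes the lipid signal that activates AKT, and AKT in turn restrains FOXO transcription factors and activates the growth-promoting kinase mTOR. In β cells the pathway is known for its part in cell mass and survival, with Irs2 as a gene that responds to glucose and cyclic AMP as well as to FOXO factors.

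Values are the authors' normalized counts, counts per gene on a scale shared between libraries. Normalized totals ran from 5534386 to 7358040, and the depth estimated from the low values ran from about 2072863 reads (knockout 1) to 10951875 (knockout 3). The β-cell markers fixed for this work were all above 0 in every library, with a summed count of 960729 to 1183713 in controls and 970943 to 1283460 in knockouts. These sums are mostly Ins1, Ins2 and Iapp, and the mean log2 level over the 10 markers was 13.14 ± 0.14 in controls and 12.94 ± 0.08 in knockouts (SD). Its part in the results below was not tested. Acinar transcripts, from the enzyme-secreting cells around islets, were carried over in every library, with a summed count over 15 markers of 22116 (control 2) to 286699 (control 4) in controls and 32139 to 89080 in knockouts. Markers of alpha cells, other hormone cells of the islet, summed to 76858 to 106665 in controls and 67955 to 104889 in knockouts. For delta and PP cells the sums were 18680 to 29623 in controls and 14177 to 30806 in knockouts. Sums were lower for ductal (1135 to 2492), endothelial (2222 to 3382), stromal (569 to 962) and immune markers (492 to 1097). The part of these hormone, ductal, endothelial, stromal and immune cells in the results was not tested. In these bulk samples fewer cells of a type and less RNA per cell cannot be told apart. Grk5 itself was 242 ± 112 over controls against 161 ± 74.9 over knockouts (SD, n = 5 each), with overlapping groups and an adjusted p of 0.955 by limma. The targeted gene thus did not separate the labels. Esr1, the estrogen receptor gene from whose product CreER takes its hormone-binding part, had counts of at most 10.5 in controls 1, 3 and 4. It reached 2495 in control 2 and 773 in control 5, beside 1517 to 3177 among the knockouts. By Esr1, the libraries labelled control 2 and control 5 thus stand apart from the other controls and nearer to the knockouts. Whether they carry CreER or go against their labels was not tested, and every comparison below takes them as labelled. For the 9 genes and their ratios, values without controls 2 and 5 are also given where they move by over 1.5 times or change a direction.

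Irs2 and Irs1, the adaptors whose balance is compared below, lie on mouse chromosomes 8 and 1. Their promoters are shown because these 2 genes stand at the top and the bottom of the members by level, and because their ratio gave the lowest p of the 5 ratios compared between the groups. Each window runs from 250 bases before to 50 bases after the RefSeq transcription start in GRCm38, on the minus strand. The windows are chr1:82291390-82291689 for Irs1 and chr8:11008880-11009179 for Irs2. In GENCODE, used for gene positions below, Irs2 starts at 11008458. Its window lies wholly upstream of that, so the distances given for Irs2 hold for the RefSeq start only. Capitals mark every CACGTG, the E-box bound by basic helix-loop-helix factors, and every AAACA or TGTTT, the core of the forkhead motif in either orientation, merged where they overlap.
Irs1: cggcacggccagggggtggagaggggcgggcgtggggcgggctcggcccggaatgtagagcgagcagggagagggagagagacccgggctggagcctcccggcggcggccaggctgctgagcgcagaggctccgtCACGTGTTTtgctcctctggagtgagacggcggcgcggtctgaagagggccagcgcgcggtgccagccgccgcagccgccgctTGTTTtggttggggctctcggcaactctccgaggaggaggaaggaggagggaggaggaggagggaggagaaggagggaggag
Irs2: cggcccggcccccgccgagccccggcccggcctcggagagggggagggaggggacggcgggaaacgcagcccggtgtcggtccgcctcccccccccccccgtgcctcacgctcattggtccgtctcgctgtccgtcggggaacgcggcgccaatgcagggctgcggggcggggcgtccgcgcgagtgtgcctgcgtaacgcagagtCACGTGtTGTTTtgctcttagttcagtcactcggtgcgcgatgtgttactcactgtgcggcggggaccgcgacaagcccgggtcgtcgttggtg
Both windows hold 1 CACGTG. In Irs1 it starts 115 bases before the transcription start and overlaps a TGTTT that starts at 111 bases, and in Irs2 it starts 44 bases before and is followed by a TGTTT at 37 bases. Around these motifs both promoters share runs of 10 bases, gtcacgtgtt over the CACGTG and TGTTTtgctc from the TGTTT on. Of 32851 RefSeq promoter windows of this length, 7.15% hold CACGTG, 50.5% hold AAACA or TGTTT, and 0.356% hold both with starts at most 10 bases apart. The arrangement was noticed after the sequences were seen, and a match of letters shows neither binding nor a cause. RefSeq windows were found for 8 of the 9 genes, all but Insr. None of these windows holds the full cyclic AMP response element TGACGTCA, which 1.79% of all windows hold, and the longer forkhead motif GTAAACA is in 1 window of Akt1 and in 3.65% of all. The shorter element TGACG, in 20.8% of all windows, overlaps the CACGTG of Irs1, and the GC box GGGCGG, in 35.7%, is in both windows shown. Both strands were searched for each motif.

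The 9 genes covered a wide range of levels. Per kilobase of exon, taken as the union of all annotated exons, Irs2 was the highest at 279 ± 78.8 normalized counts per kb (SD, n = 10 libraries). Akt1 followed at 116 ± 22.2 and Akt2 at 60.1 ± 18.1 per kb. Within each library Irs2 was above Akt1, and Akt1 above Akt2, in 10 of 10 libraries. Pik3ca (53.0 ± 51.6), Igf1r (45.5 ± 14.3), Foxo1 (40.3 ± 9.61), Mtor (38.2 ± 17.1), Insr (31.1 ± 10.5) and Irs1 (21.4 ± 5.67) came next in order of their mean per kb. From Akt2 down, each gene and its neighbour in this order differed by less than 1 SD of their log2 difference within libraries, so neighbours among these 7 are not ordered by these data. Measured on the longest transcript instead, Akt1 was at 177 per kb, Akt2 at 94.3, Igf1r at 67.0 and Insr at 45.6, and Irs2 and Irs1 stayed first and last. On that length Irs2 was above Akt1 in 9 of 10 libraries, and Akt2 against Igf1r and Foxo1 against Irs1, then neighbours, also differed by more than 1 SD.

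**Figure D1:**
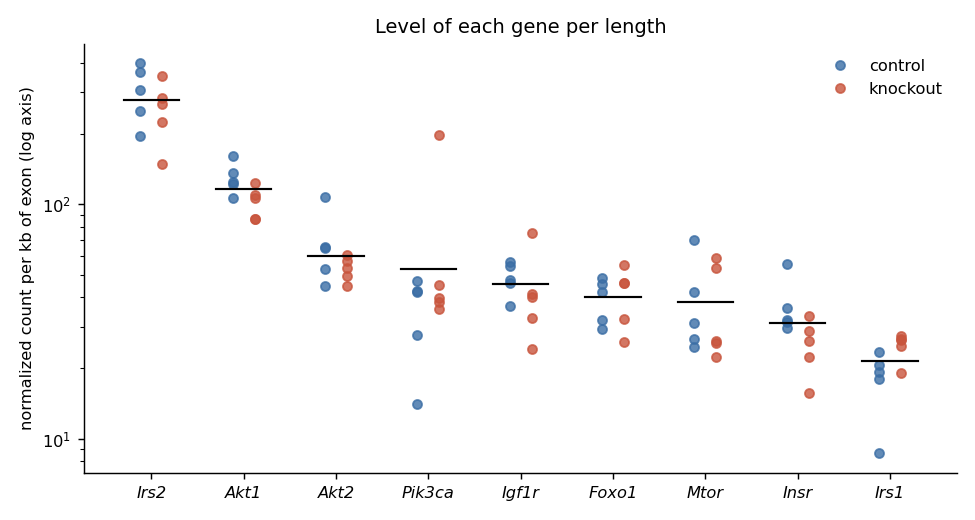
Level of each gene in every library, as normalized counts per kilobase of exon on a log axis, with controls in blue, knockouts in red and a black line at the mean of the 10 libraries. Irs2 stands above the others and Irs1 has the lowest mean, 279 and 21.4 per kb, while the values of the groups overlap for every gene.

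None of the 9 genes passed the test between the groups. At an adjusted p under 0.05 by limma 0 of 9 passed, where 0% of the 11711 genes did. At an unadjusted p under 0.05 it was again 0 of 9, with 5.01% of all genes (2.36% higher and 2.66% lower), and for 0 of 9 did the groups not overlap, with 0.862% of all genes (0.435% higher and 0.427% lower). Log2 fold changes, knockout minus control, were below 0 for 6 of the 9 and above 0 for 3, with a median of -0.26, beside 52.4% below 0, 47.6% above 0 and a median of -0.03 over all genes tested. Over the 21 alternatives from 5 to 7 were below 0, and the median ran from -0.32 with upper-quartile scaling to -0.01 with the acinar covariate. It was -0.09 without control 1, -0.15 without control 5 and -0.08 without knockout 1. Fold changes are on the log2(value + 8) scale.

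**Figure D2:**
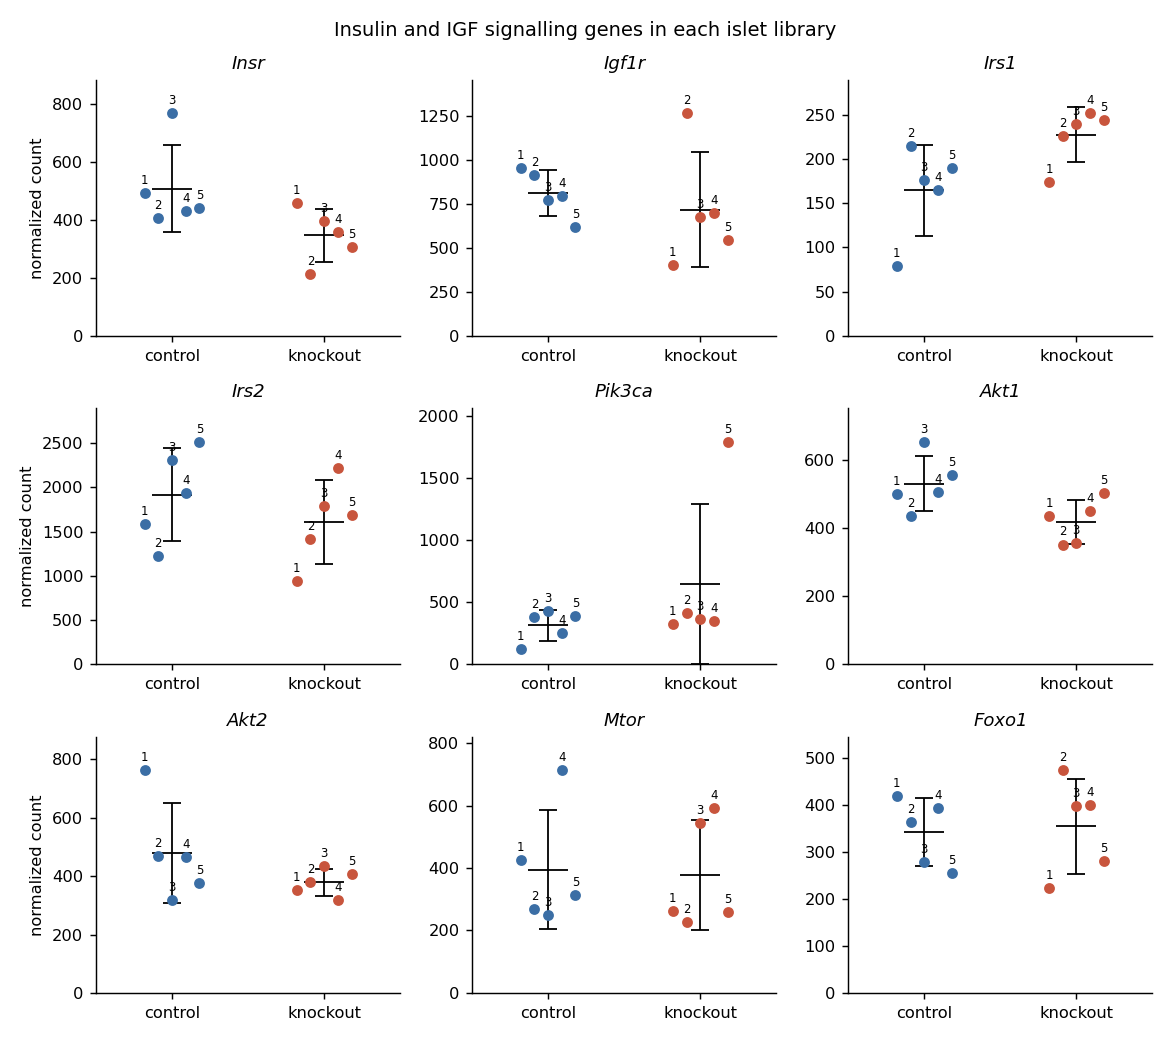
Normalized counts of the 9 genes in each library, numbered 1 to 5 within a group, with the group mean and SD as bars. For Insr 4 of 5 knockouts lie below the lowest control, for Irs1 4 of 5 lie above the highest control, and knockout 5 stands alone at 1793 for Pik3ca.

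At the receptors, Insr, which encodes the insulin receptor, was lower in most knockouts. It lies on chromosome 8 (3122061 to 3279617, minus strand, GRCm38). Insr counts were 493, 406, 767, 431 and 441 across controls 1 to 5, beside 458, 215, 395, 358 and 306 across knockouts 1 to 5. Of the knockouts, 4 lay below the lowest control, and knockout 1 lay above 3 of the 5 controls. The means were 507 ± 149 and 346 ± 92.0 (SD, n = 5 each), which gave a log2 fold change of -0.54 ± 0.29 (SE) with 95% limits of -1.16 to 0.07 and an adjusted p of 0.942 by limma. Control 3 was the highest of the 10 libraries, and without it the log2 fold change was -0.39. The unadjusted limma p was 0.0811 over all 10 libraries, and over the 21 alternatives it ran from 0.0341 with library quality weights (log2 fold change -0.65) to 0.294 without controls 2, 3 and 5 (-0.45). It was under 0.05 in 2 of them, the other being without knockout 1 (0.0417).

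Igf1r, the receptor gene for IGF1 on chromosome 7 (67952827 to 68233668, plus strand), was 952, 912, 774, 796 and 619 over controls 1 to 5, against 405, 1266, 676, 696 and 548 over knockouts 1 to 5. Knockout 2 was the highest and knockout 1 the lowest of the 10 libraries, so the knockouts spread around the whole control range. Their coefficient of variation was 45.6%, beside 16.1% in the controls. Igf1r stood at -0.26 ± 0.28 (SE) in log2 fold change, with an adjusted limma p of 0.963. It was -0.49 without knockout 2 and -0.08 without knockout 1. The ratio of Insr to Igf1r, compared within libraries as log2 of the counts plus 8, differed by -0.28 between the groups, with an exact 2-sided permutation p of 0.643 (adjusted 0.897). Its direction turned without knockout 2 (0.10), the library with the lowest Insr and the highest Igf1r.

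The means of the 2 IRS adaptors differed in opposite directions between the groups. Irs1, on chromosome 1 (82233101 to 82291416, minus strand), encodes a widely expressed substrate. Its counts were 79.1, 215, 176, 165 and 189 across controls 1 to 5, beside 174, 226, 239.9, 251.7 and 244 across knockouts 1 to 5. Of the knockouts, 4 lay above the highest control, and knockout 1 lay within the control range. Irs1 stood at 0.50 ± 0.37 (SE) in log2 fold change, with an adjusted limma p of 0.946, which was 0.27 without control 1, the lowest library, and 0.93 without controls 2, 3 and 5. Of the exon bases of Irs1, 30.9% overlap Gm9747 on the opposite strand, which had a mean of 5.06. The sources used here do not say whether counting used strand.

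Irs2, on chromosome 8 (10984681 to 11008458, minus strand), encodes the substrate best known for its part in β-cell mass. Its counts were 1586, 1229, 2314, 1933 and 2517 over controls 1 to 5, against 937, 1417, 1789.8, 2216 and 1688 over knockouts 1 to 5. The groups overlapped over most of their range, with knockout 1 below every control. Irs2 stood at -0.26 ± 0.24 (SE) in log2 fold change, with an adjusted limma p of 0.963. Irs2 was -0.41 without control 2, -0.15 without control 5 and -0.08 without knockout 1, which was also the shallowest library by the depth estimate. Control 2 held the lowest acinar sum and the lowest control value of Irs2. With the mean acinar level as a covariate the log2 fold change of Irs2 was -0.01 ± 0.25 (SE).

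The ratio of Irs2 to Irs1 was lower in the knockouts, but not past the adjusted threshold. It was 20.1, 5.72, 13.1, 11.7 and 13.3 across controls 1 to 5, beside 5.39, 6.26, 7.46, 8.80 and 6.93 across knockouts 1 to 5, as a plain ratio of counts not corrected for length. Control 2 lay within the knockout range, and the other 4 controls lay above every knockout. On the log2 scale with 8 added to each count, the ratio was 3.50 ± 0.63 over controls against 2.74 ± 0.27 over knockouts (SD, n = 5 each), a difference of -0.76. The exact 2-sided permutation p was 0.0397, and the adjusted p over the 5 ratios compared was 0.198. Without control 2 the difference was -1.02 with an exact permutation p of 0.00794, the smallest that the arrangements allow, and an adjusted p of 0.0397, in a range of adjusted p from 0.0397 to 0.437 over the alternatives. As control 2 was the only control within the knockout range, leaving it out fixed that p at its smallest in advance. Without controls 2 and 5 the difference was -1.04 (exact permutation p = 0.0179, adjusted p = 0.0893). This p is also the smallest that its 56 arrangements allow, so the adjusted p of these settings cannot be set against each other. With the mean acinar level as a covariate, an alternative added after seeing the data, the difference was -0.45 ± 0.28 (SE).

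**Figure D3:**
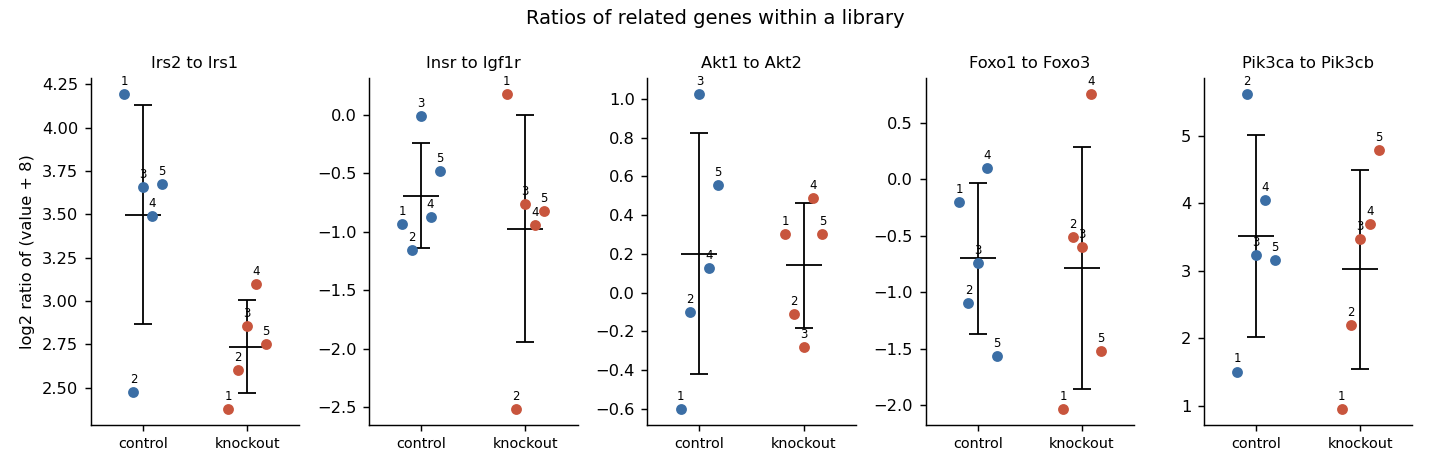
Log2 ratio of paired genes in each library, with 8 added to each count, numbered 1 to 5 within a group, with the group mean and SD as bars. For Irs2 to Irs1 control 2 lies among the knockouts and the other 4 controls lie above them, while the groups overlap widely for the other ratios.

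Pik3ca, on chromosome 3 (32397671 to 32468486, plus strand), encodes a catalytic subunit of phosphatidylinositol 3-kinase. Its counts were 128, 383, 429, 251 and 388 over controls 1 to 5, against 325, 412, 362, 347 and 1793 over knockouts 1 to 5. A single library, knockout 5, held more than 4 times the next highest value, and the other 4 knockouts lay within the control range. Pik3ca had the largest log2 fold change of the 9 genes in size, 0.76 ± 0.45 (SE, adjusted p = 0.942 by limma), which was 0.30 without knockout 5, 0.47 without control 1 and 1.43 without controls 2, 3 and 5, where the unadjusted limma p was 0.0374. The authors' deposited table gives Pik3ca a log2 fold change of 1.03 with a p of 0.0488 and an adjusted p of 0.740.

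Of the other subunits, Pik3r1, the main regulatory subunit gene, was 806, 1195, 1173, 1080.1 and 921 across controls 1 to 5, beside 2724, 1115, 1513, 1346 and 1323 across knockouts 1 to 5. All knockouts but knockout 2 lay above the highest control. Pik3r1 stood at 0.57 ± 0.23 (SE) in log2 fold change, with limma p-values of 0.0237 unadjusted and 0.942 adjusted, and 0.36 without knockout 1. Pik3cb, another catalytic subunit gene, was listed at 39.8, 0, 38.4, 7.63 and 36.1 over controls 1 to 5, against 164, 83.2, 25.3, 19.5 and 57.4 over knockouts 1 to 5. The ratio of Pik3ca to Pik3cb differed by -0.49 on the log2 scale (exact permutation p = 0.611, adjusted 0.897), and its direction turned without control 2 (0.03), without knockout 1 (0.02), without controls 2 and 5 (0.09) and without controls 2, 3 and 5 (0.24). With Pik3cb this low, the size of the difference depended on the 8 added to each count. It was -1.17 with 1 added and -0.04 with 32 added. Over the 7 tested genes of this kinase family, Pik3ca included, 1 was higher and 0 lower at an unadjusted p under 0.05. Over all genes 2.36% were higher and 2.66% lower. The median log2 fold change of the 7 was 0.57, or 0.34 without knockout 5, beside -0.03 over all genes tested. Pik3r3, a further regulatory subunit gene, was at -0.87 ± 0.52 (SE, adjusted p = 0.942 by limma), or -0.50 without knockout 1, -0.55 without control 1, -1.36 without controls 2 and 5 and -1.58 without controls 2, 3 and 5.

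Akt1 and Akt2, which encode AKT kinases, both had lower means in the knockouts, and neither passed the test. Akt1, on chromosome 12 (112653821 to 112674884, minus strand), had about the same spread in both groups, with a coefficient of variation of 15.3% in controls and 15.4% in knockouts. Its counts were 499.8, 437, 655, 508 and 556 across controls 1 to 5, beside 437, 353, 356, 450.1 and 503 across knockouts 1 to 5. Knockouts 4 and 5 lay within the control range and the other 3 below it, knockout 1 by less than 1 count. Akt1 had a log2 fold change of -0.33 ± 0.25 (SE, 95% limits -0.86 to 0.19, adjusted p = 0.951 by limma), and it ran from -0.42 to -0.26 over all 21 alternatives.

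Akt2, the isoform tied to glucose handling, lies on chromosome 7 (27591552 to 27640826, plus strand). It was 763, 469.7, 318, 464 and 376 over controls 1 to 5, against 353, 381, 435, 319 and 407 over knockouts 1 to 5. All knockouts lay within the control range and below its median, and control 1 stood apart at the top. Akt2 stood at -0.27 ± 0.29 (SE) in log2 fold change, with an adjusted limma p of 0.963, or -0.09 without control 1 and -0.65 without controls 2, 3 and 5. The ratio of Akt1 to Akt2 differed by -0.06 between the groups (exact permutation p = 0.849, adjusted 0.897), with a direction that turned under 5 of 14 alternatives.

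Mtor, the kinase gene of both mTOR complexes, lies on chromosome 4 (148448611 to 148557683, plus strand). It was 427, 269, 249.6, 714 and 314 across controls 1 to 5, beside 264, 226, 543, 593 and 259.7 across knockouts 1 to 5. In each group the libraries fell far apart, with a coefficient of variation of 48.4% in controls and 46.6% in knockouts. The log2 fold change was -0.07 ± 0.37 (SE, 95% limits -0.84 to 0.70, adjusted p = 0.992 by limma). It was 0.17 without control 4, which also held the highest acinar sum, 0.30 with the acinar level as a covariate, -0.28 without controls 2 and 5, and -0.66 without controls 2, 3 and 5.

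Foxo1, on chromosome 3 (52268336 to 52353221, plus strand), encodes the FOXO factor that AKT keeps out of the nucleus. It was 419.8, 364, 278, 394 and 255 over controls 1 to 5, against 224, 475, 398, 399.9 and 281 over knockouts 1 to 5. The knockouts spread to both sides of the control range. The log2 fold change was 0.03 ± 0.31 (SE, 95% limits -0.61 to 0.67, adjusted p = 0.996 by limma), and its direction turned under 8 of 21 alternatives, among them upper-quartile scaling (-0.029) and leaving out controls 2 and 5 (-0.062). Of the 4 FOXO factor genes tested, 0 had an unadjusted p under 0.05. Foxo3 was 575 ± 189.8 over controls against 656 ± 268 over knockouts (SD, n = 5 each), or 0.11 in log2 fold change and 0.44 without controls 2 and 5, with a direction that turned with the acinar covariate and without control 4 (-0.03), knockout 1 (-0.05) or knockout 5 (-0.00). The ratio of Foxo1 to Foxo3 differed by -0.08 (exact permutation p = 0.897, adjusted 0.897), with a direction that turned under 4 of 14 alternatives. It was -0.50 without controls 2 and 5 and -0.73 without controls 2, 3 and 5.

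**Figure D4:**
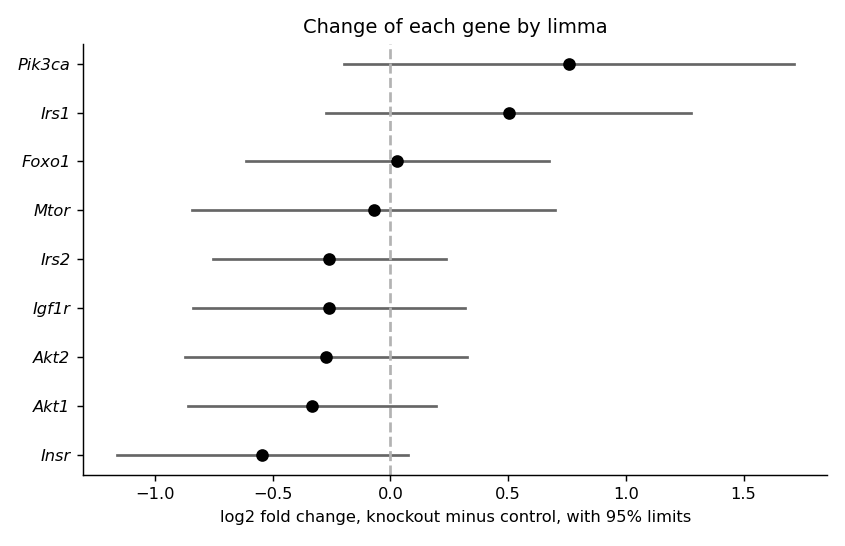
Log2 fold change of each gene, knockout minus control on the log2(value + 8) scale, as a point with its 95% limits from limma. All 9 intervals cover 0, from Insr at -0.54 to Pik3ca at 0.76.

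The rest of the pathway was described through 106 genes on 11 lists by role, of which 93 were tested, 84 of them outside the 9. At the adjusted threshold 0 passed. At an unadjusted p under 0.05 there were 2 higher and 4 lower, 6.45% of the 93, beside 5.01% of all genes. All 6 lay outside the 9 members, where they were 7.14% of the 84. The 6 were Igf2, Socs3, Pik3r1, Gsk3b, Sesn3 and Fbxo32. Of these, Igf2 passed the filter for low values only through the controls. Over the 93 genes 57 log2 fold changes were below 0 and 36 above, with a median of -0.08. Over all genes tested 52.4% were below 0 and 47.6% above, with a median of -0.03.

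Among the ligands, Ins1 and Ins2 dominated, at 315975 ± 19232 and 639126 ± 64978 in controls (SD, n = 5 each), and their log2 fold changes were -0.08 and -0.01, the second with a direction that turned under 8 of 21 alternatives. Igf2, a fetal growth factor gene, was listed at 15.6, 194, 29.2, 37.9 and 11.8 across controls 1 to 5, beside 0, 19.1, 9.20, 0 and 8.63 across knockouts 1 to 5. Control 2 was far above the others, and most values were near the filter of 10. Igf2 reached 10 in every control but, among the knockouts, only in knockout 2. It thus passed the filter through the controls, so its p is no support for a difference. Without controls 2 and 5 it did not pass the filter. Igf2 stood at -1.67 ± 0.73 (SE) in log2 fold change, with limma p-values of 0.0340 unadjusted and 0.942 adjusted, or -0.91 with a pseudocount of 32 and -2.92 with a pseudocount of 1. Igf1 did not pass the filter, and ran from 0 to 117 in controls and from 0 to 36.6 in knockouts.

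Besides Insr and Igf1r, the receptor list held Insrr, an orphan relative that senses alkaline pH, and Igf2r, which clears IGF2. Insrr was 1284 ± 70.8 over controls against 1317 ± 372 over knockouts (SD, n = 5 each). Igf2r ran from 455 to 2016 in controls and from 378 to 3880.1 in knockouts, with knockouts 2 and 4 and control 1 far above the other libraries. It was at 0.48 ± 0.68 (SE), 0.22 without controls 2 and 5, -0.11 without controls 2, 3 and 5 and -0.00 without knockout 2. Of the 5 IGF binding protein genes tested, 0 had an unadjusted p under 0.05, and the most abundant, Igfbp7 and Igfbp3, were at -0.20 (-0.09 without control 2 and -0.41 without knockout 4) and 0.24 (0.07 without knockout 1 and 0.40 without knockout 3). The direction of Igfbp3 turned with library quality weights.

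Of the 9 adaptors tested, 0 had an unadjusted p under 0.05, with a median of -0.06 that ran from -0.21 without control 2 to -0.01 with the acinar covariate. Shc1, which links the receptors to the RAS route, was at -0.45 ± 0.35 (SE), -0.20 without knockout 4 and -0.71 without controls 2 and 5. The median of 11 receptor and IRS inhibitors was -0.16, from -0.32 with the acinar covariate to -0.01 without controls 2, 3 and 5. Of the 11, 1 was lower and 0 higher at an unadjusted p under 0.05 (2.66% and 2.36% of all genes). This was Socs3, an inducible inhibitor of cytokine and insulin receptors, at 412, 422, 1510.5, 452 and 672 over controls 1 to 5, against 344, 266, 286, 510.0 and 430.3 over knockouts 1 to 5. Control 3 stood far above the rest, as it did for Insr. Socs3 stood at -0.75 ± 0.35 (SE) in log2 fold change, with limma p-values of 0.0457 unadjusted and 0.942 adjusted, or -0.42 without control 3 and -0.27 without controls 2, 3 and 5.

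Of 6 lipid phosphatase genes that oppose the kinase, 0 had an unadjusted p under 0.05. Of 14 genes of AKT and its partners, 1 was lower and 0 higher at that level (2.66% and 2.36% of all genes). Their median of -0.26 ran from -0.31 with upper-quartile scaling to -0.13 with library quality weights. Gsk3b encodes the kinase that AKT inhibits to free glycogen synthesis, and it was 909, 789, 1041, 903 and 809 across controls 1 to 5, beside 764, 561, 878, 523 and 387 across knockouts 1 to 5. Only knockout 3 lay within the control range, and the other 4 lay below it. Gsk3b stood at -0.56 ± 0.25 (SE) in log2 fold change, with limma p-values of 0.0346 unadjusted and 0.942 adjusted, from -0.70 without knockout 3 to -0.41 without knockout 5. Ppp2ca, a catalytic subunit of the phosphatase that switches AKT off, was at 0.65 ± 0.31 (SE), and 1.03 without controls 2 and 5.

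Of 17 genes of the mTOR complexes and their effectors, 0 had an unadjusted p under 0.05. Their median of -0.11 turned to 0.09 without controls 2, 3 and 5 and to 0.03 without knockout 1. Deptor, an inhibitory subunit of both complexes, was the most abundant by count at 1204 ± 241 over controls against 971 ± 282 over knockouts (SD, n = 5 each), or -0.34 in log2 fold change and -0.17 without knockout 3. Of 16 FOXO target genes tested, 1 was higher and 1 lower at an unadjusted p under 0.05 (2.36% and 2.66% of all genes). Their median of -0.08 turned to 0.08 without control 2, 0.06 without controls 2 and 5, 0.04 without controls 2, 3 and 5, 0.04 without knockout 1 and 0.03 with library quality weights. Sesn3, which encodes a stress-responsive brake on mTOR, was 354, 279, 269, 175 and 302 over controls 1 to 5, against 99.4, 82.4, 157, 205 and 179 over knockouts 1 to 5. Knockouts 4 and 5 lay above control 4, and the other 3 lay below every control. Sesn3 stood at -0.93 ± 0.38 (SE) in log2 fold change, with limma p-values of 0.0230 unadjusted and 0.942 adjusted, from -1.08 without control 4 to -0.76 without knockout 2.

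Fbxo32, the ubiquitin ligase gene also called atrogin-1, had a higher mean in the knockouts. It was 74.8, 184, 115, 56.1 and 109.7 across controls 1 to 5, beside 316, 173, 187, 202 and 158 across knockouts 1 to 5. Control 2 lay within the knockout range, and the other 4 controls lay below every knockout. Fbxo32 stood at 0.95 ± 0.42 (SE) in log2 fold change, with limma p-values of 0.0365 unadjusted and 0.942 adjusted, 1.52 without controls 2, 3 and 5 and 0.55 with the acinar level as a covariate.

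**Figure D5:**
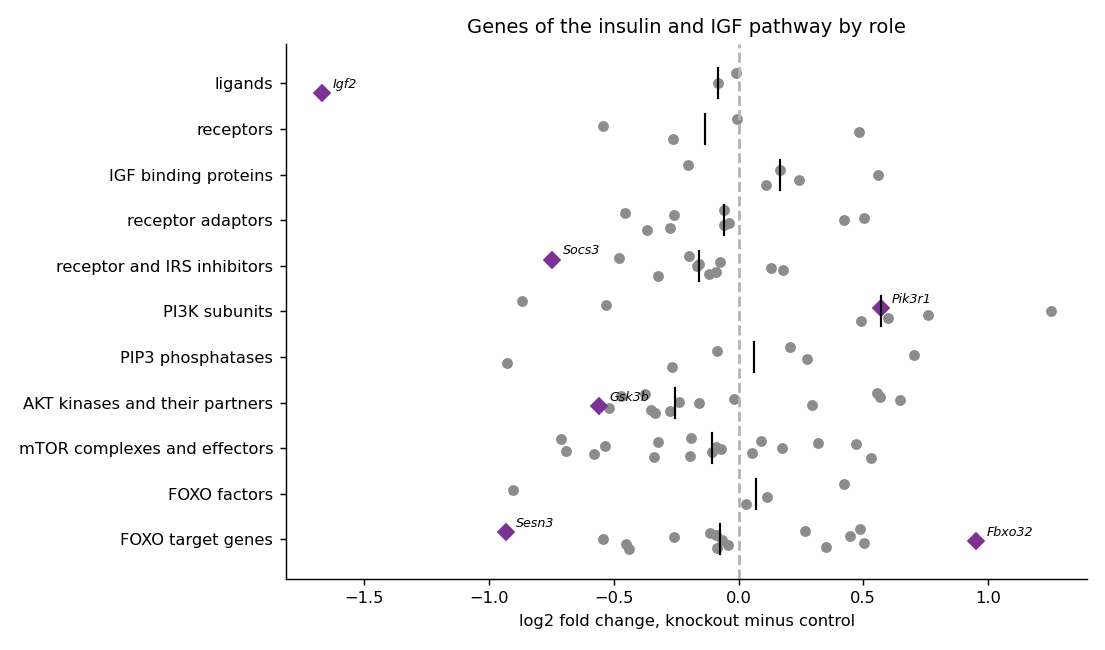
Log2 fold change of each tested gene on the 11 lists, knockout minus control, with a black line at each list's median and purple diamonds for genes with an unadjusted p under 0.05 by limma. The 6 diamonds lie on both sides of 0 and on 5 of the lists, with Igf2 farthest to the left at -1.67.

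Across the 10 libraries the 9 genes did not vary as a block. Of the 36 pairs, 18 had a Pearson r above 0 and 18 below, with a median of -0.03. The highest was Igf1r with Foxo1, at r = 0.82 (permutation p = 0.00238, adjusted p = 0.0857) and rho = 0.75 (permutation p = 0.0177, adjusted p = 0.241). Without the 2 libraries farthest from the Igf1r median, this r was 0.59. Insr with Akt1 had r = 0.73 (permutation p = 0.0187, adjusted p = 0.336) and rho = 0.54 (permutation p = 0.115, adjusted p = 0.689), and r = 0.11 without the 2 libraries farthest in Insr, so it rests on those. The lowest was Irs1 with Akt2, at r = -0.74 (permutation p = 0.0516, adjusted p = 0.620), which turned to 0.31 without the 2 libraries farthest in Irs1. Insr and Irs1 ranked in opposite order, with r = -0.46 (permutation p = 0.189, adjusted p = 0.661), rho = -0.79 (permutation p = 0.00821, adjusted p = 0.241) and r = -0.76 without the 2 farthest. Both groups are pooled here, and Insr had a lower and Irs1 a higher mean in the knockouts. The part of that in their opposite order was not tested. No pair passed the adjusted threshold. The libraries share depth and tissue makeup, and a group of 5 libraries was too small for a correlation of its own.

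Among 9098 other genes with a mean of at least 50, those whose log2 values followed each member most closely over the 10 libraries were listed by Pearson r, as a description. They were Trrap (0.90) and Cldn12 (0.89) for Insr, and Limd2 (0.93) and Jag1 (0.91) for Igf1r. For the adaptors they were Pnpla8 (0.96) and PCDHGA12 (0.95) for Irs1, and Ctc1 (0.93) and Lss (0.93), a cholesterol synthesis gene, for Irs2. Ptpra (0.90) and Brd3 (0.90) followed Pik3ca, the second with a rank correlation of 0.35. Ric8b (0.90) and Socs3 (0.90) followed Akt1, and Zfp655 (0.92) and the receptor inhibitor gene Grb10 (0.90) followed Akt2. Lamb2 (0.92) and Hexdc (0.92) followed Mtor, and Ipo11 (0.95) and Jade1 (0.92) followed Foxo1. Of these similar genes, Socs3 and Grb10 lie on the pathway lists.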

How the data were processed

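Libraries were made with a stranded, random-primed kit after ribosomal RNA removal, per the labels' protocols. STAR (2.4.0.1), DESeq2 and HTSeq are listed, with no role, in the submitters' processing notes. Build and annotation are not given in the sources used here. What the authors deposited are normalized counts, a signal unit that is not whole reads: 22.6% to 33.6% of a library's values above 0 were whole multiples of its commonest low value, within 0.01. Depth was estimated as the total over that value, which is uncertain in every library. It is more so for controls 2, 3 and 5, where 9.00% to 11.2% of values lay midway between multiples. The authors' deposited table also holds their log2 fold changes, test scores and p-values, quoted only where named. It has 1 row without a gene name (0.00774% to 0.0251% of a library), which was left out.

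Genes with a value of at least 10 in at least 5 libraries were compared on log2(value + 8) with limma 3.58.1 in R 4.3.3 (trend, robust, Benjamini-Hochberg, threshold 0.05). Ratios were compared by exact 2-sided permutation tests over all arrangements of the labels. Correlations used 100000 permutations. The fits were tested on simulated data. Positions and exon lengths are from GENCODE M21 (GRCm38, possibly another build than the authors used), and promoters from RefSeq on GRCm38.p6, with Python 3.11.15. Genes named outside the 9 were, per list, up to 4 with the smallest p and up to 2 with the highest mean, the partners in a ratio, Grk5 and Esr1, and the 2 genes closest to each member by Pearson r. The members and lists were chosen with earlier results of these data known, among them the values of Esr1 that led to leaving out controls 2 and 5 and the midway values that led to leaving out controls 2, 3 and 5. Other alternatives changed the pseudocount, filter, scaling, variance estimates, library weights and an acinar covariate. Some genes of the lists are counted but not reported by name here.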

Additional observations from a re-analysis of the deposited data

Results flagged for a closer look

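Among 28 groups of 5 values, 2 held a library whose gap to its nearest neighbour took up more of the group's range than Dixon's 95% critical value, where chance flags about 1 in 20. Pik3ca in knockout 5 was 1793 normalized counts, and the next highest knockout was 412, a gap of 0.941 of the range. Insr in control 3 was 767, and the next highest control was 493, a gap of 0.757 of the range.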

How the results depend on the processing

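No paired analysis was possible because the labels give the groups no shared replicate numbers. The number of genes past the adjusted threshold by limma, 0 with all libraries (587 at an unadjusted p under 0.05), was 1 without controls 2 and 5 (Esr1), 3 without controls 2, 3 and 5 (Amy2a1, Esr1 and Herc4), and from 0 to 1 with single libraries left out, the 1 being Ppp4r1l-ps without control 1. Controls 2 and 5 were left out for their high Esr1, so the Esr1 call in both settings was built in by that choice. It is no support for a difference. For the other calls the cause was not tested. None of the 9 genes passed under any of the 21 alternatives, where their adjusted p ran from 0.875 upwards. Insr, Igf1r, Irs1, Irs2, Pik3ca, Akt1 and Akt2 kept their direction under all 21.

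Foxo1 turned to -0.029 with upper-quartile scaling, -0.062 without controls 2 and 5 and -0.24 without controls 2, 3 and 5, and ran from -0.085 to 0.18 with single libraries left out. Mtor turned to 0.30 with the acinar covariate and ran from -0.26 to 0.17 with single libraries left out. With single libraries left out, the difference in log2 ratio ran from -1.02 to -0.59 for Irs2 to Irs1, from -0.57 to 0.10 for Insr to Igf1r, from -0.26 to 0.15 for Akt1 to Akt2, from -0.47 to 0.23 for Foxo1 to Foxo3 and from -0.995 to 0.030 for Pik3ca to Pik3cb. Akt1 to Akt2 was 0.38 without controls 2, 3 and 5, and Pik3ca to Pik3cb was 0.088 without controls 2 and 5 and 0.24 without controls 2, 3 and 5. For these reversals the cause was not tested. The limits of Pik3ca, -0.20 to 1.71, cover differences of either sign, and the part of depth in their width was not tested.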
